A study of Mus musculus with 4 samples.

Results

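Bin1, Picalm, Cd2ap, Sorl1, Clu, Abca1, Abca7 and Ptk2b are the mouse counterparts of human genes near variants that are associated with the risk of late-onset Alzheimer's disease. They were taken as 8 listed gene symbols out of the 32285 genes in the count tables. All 8 were present in each library. The rule that picks them uses no measured value, although the list was chosen with earlier results of these data known.

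The libraries are single-nucleus RNA sequencing of mouse hippocampus, a method that reads the RNA of isolated nuclei one nucleus at a time. The 4 groups had 1 library each. They were App NL-G-F knock-in mice with exercise, App NL-G-F knock-in mice without exercise, wild-type (WT) C57BL/6J mice with exercise, and WT C57BL/6J mice without exercise. In App NL-G-F mice the endogenous App gene encodes human amyloid-beta with familial Alzheimer mutations, expressed from the mouse gene's own promoter. All mice were female and 8 weeks old at the start, and the running period lasted 10 weeks. The protocol text names a running wheel for every sample, but the titles mark 2 of the samples as having no exercise, and the titles were followed. The number of animals behind a library is not stated.

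As background, endocytosis takes receptors and their cargo, including the amyloid precursor protein, from the cell surface into vesicles, and sorting receptors then steer that cargo towards recycling, the Golgi or degradation. Lipoprotein carriers and ABC transporters move cholesterol and phospholipid between brain cells, astrocytes being a main source of lipoprotein particles. Neurons, oligodendrocytes and microglia rely on the same machinery for synaptic vesicles, myelin and the clearing of debris.

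A unique molecular identifier (UMI) counts 1 captured RNA molecule. UMIs were summed over the nuclei of a cell class in a library and are given as counts per 1000000 UMIs of that class (CPM), so a value is a share of the class's RNA and not an amount per nucleus. Each group being a single library, differences could not be set against replicates and none carries a p-value. Intervals are exact 95% intervals for counting error only. A difference between 2 libraries is called past the fold where it was at least 1.5-fold in either direction and the gene had at least 100 UMIs over both libraries. Shares of all genes given beside counts of pairs are shares of all gene and class pairs, over the same classes and by the same rule. Because a UMI is read next to the 3' end of an RNA, levels are compared within a gene and not between genes.

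Total UMIs per library were between 64158446 and 91676884, and 6508 to 10213 nuclei per library were kept. Clustering without integration gave 15 named cell classes, and 10 of 32 clusters stayed unnamed. The markers of each class were detected in it in each library, except Scgn in CA2 neurons, Diaph3 in Cajal-Retzius cells and Cplx3 in Lamp5 inhibitory neurons, each at 0 in 1 or 2 libraries, while vascular cells were named from endothelial and pericyte lists. Detection is a weak check of a name. Mossy cells had 3 of 9 markers raised at least 2-fold over the other nuclei. The mean log2 fold there was 0.9 for the mossy cell list and 0.82 for the CA3 neuron list. The 8 genes were used neither to cluster nor to name the nuclei. Libraries shared 20 to 42 barcodes, at most 0.486% of the smaller library. For granule neurons, CA1 neurons and oligodendrocytes, different clusters held most of the class in different libraries, whereas CA3 neurons, astrocytes and microglia were 1 cluster each. Cluster 12 held 97.3% of granule neurons in the knock-in with exercise, whereas clusters 2, 13 and 14 held most of them in the other libraries. Cluster 9 held 75.7% of CA1 neurons in the knock-in with exercise, against 2.27% in the knock-in without exercise. Cluster 31 held 99.8% of oligodendrocytes in the knock-in with exercise, cluster 26 held 97.5% in the knock-in without exercise, and cluster 1 held 90.1% in WT with exercise and 96.7% in WT without exercise. Malat1, a long RNA retained in the nucleus, took 3.35% of UMIs in the knock-in with exercise, 9.56% in the knock-in without exercise, 6.04% in WT with exercise and 3.2% in WT without exercise. App stood at 523, 485, 472 and 514 CPM in the same libraries, a 3' count in which both alleles look alike, so it does not check the genotype labels.

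The 8 genes fell into different cell classes. Bin1 was highest in oligodendrocytes, Picalm in microglia, Cd2ap in vascular cells and microglia, and Clu in astrocytes. Abca1 was highest in microglia, whereas Sorl1 and Ptk2b were highest in excitatory neurons. Abca7 had its highest means in neurons, although granule neurons were its lowest class. In the following, means are over the 4 libraries, which are 4 different groups, with the SD over them (n = 4).

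**Figure D1:**
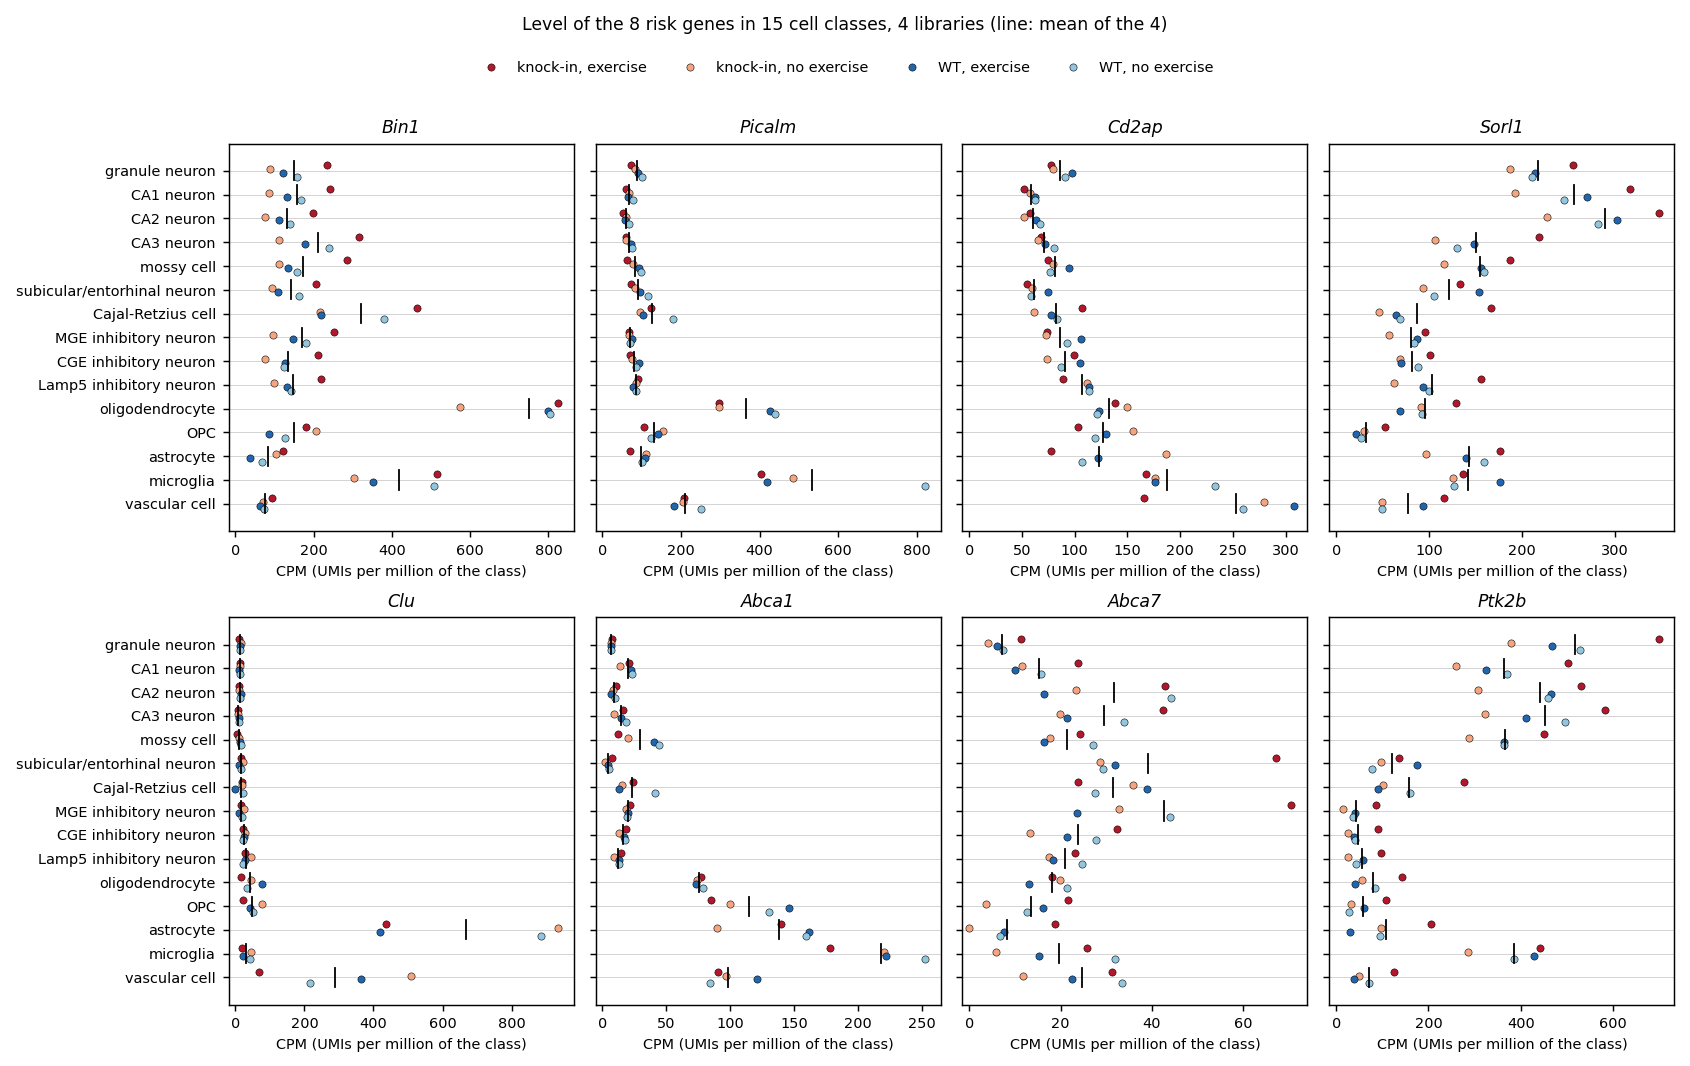
Level of each gene in CPM (x axis, a different scale in each panel) in 15 cell classes (y axis), with 1 point per library and a line at the mean of the 4. Bin1 points in oligodendrocytes lay between 573 and 825 CPM, above all its points in the other classes.

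Bin1 encodes amphiphysin 2, a protein that binds and bends membranes. The gene (ENSMUSG00000024381) lies on chromosome 18, 32377230 to 32435737, plus strand (GRCm38). In oligodendrocytes it had 825 CPM in the knock-in with exercise, 573 in the knock-in without exercise, 799 in WT with exercise and 803 in WT without exercise. The libraries other than the knock-in without exercise were close to each other. In microglia the values were 516, 302, 351 and 507 CPM in the same order. Mean levels were 750 ± 118 CPM in oligodendrocytes and 419 ± 108 in microglia, and the ranges of the 2 classes did not overlap. Cajal-Retzius cells followed with 320 ± 123 CPM, a level within the spread of microglia. From CA3 neurons, with 211 CPM, down to CA2 neurons, with 131, each class overlapped its neighbour in the order. Astrocytes, with 82.5 CPM, and vascular cells, with 74.8, were lowest. Although oligodendrocytes had the highest level, they held only 18.8%, 20.5%, 11.9% and 15.2% of the Bin1 UMIs of the 4 libraries. Granule neurons held 25.3%, 17.9%, 19.6% and 21.8%. A noncoding gene, A830052D11Rik, overlaps Bin1 on the opposite strand. Since strand use in counting is not stated, part of the Bin1 count cannot be told apart from it, although A830052D11Rik itself had at most 56 UMIs in any of the 7 classes and libraries compared, against 4673 for Bin1 in the same granule neurons.

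Picalm encodes an adaptor that brings clathrin to the membrane and sets the size of clathrin-coated vesicles. It lies on chromosome 7, 90130213 to 90213465, plus strand (ENSMUSG00000039361). Gm45220, Gm45221, Gm45222 and Gm45223 overlap Picalm on the same strand, and their part in its count was not tested. Microglia had 404 CPM in the knock-in with exercise, 484 in the knock-in without exercise, 420 in WT with exercise and 822 in WT without exercise. WT without exercise stood well above the other 3 libraries. Oligodendrocytes had 296, 298, 427 and 439 CPM in the same order, so both knock-in libraries were below both WT libraries. Mean levels were 533 ± 196 CPM in microglia, 365 ± 78.8 in oligodendrocytes and 211 ± 29.4 in vascular cells. Microglia overlapped oligodendrocytes, but oligodendrocytes did not overlap vascular cells and vascular cells did not overlap any class below them. All neuronal classes other than Cajal-Retzius cells had means between 59.2 CPM, in CA2 neurons, and 91.6 CPM, in subicular and entorhinal neurons.

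Cd2ap encodes a scaffold that links endocytic vesicles and receptors to actin. It lies on chromosome 17, 42792951 to 42876665, minus strand (ENSMUSG00000061665). Vascular cells had 166 CPM in the knock-in with exercise, 280 in the knock-in without exercise, 308 in WT with exercise and 260 in WT without exercise. Microglia had 168, 176, 176 and 233 CPM in the same order. Vascular cells averaged 253 ± 61.5 CPM and microglia 188 ± 29.9, and their ranges overlapped. This order was not stable, since microglia were above vascular cells in the mean when clusters were cut more finely or nuclei were thinned to a common depth. Microglia did not overlap oligodendrocytes, with 133 ± 13.4 CPM. CA1 neurons were lowest, with 58.5 ± 4.81 CPM.

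Sorl1 encodes SORLA, a receptor that works with the retromer complex to return the amyloid precursor protein from endosomes to the Golgi. It lies on chromosome 9, 41964720 to 42124297, minus strand (ENSMUSG00000049313). CA2 neurons had 348 CPM in the knock-in with exercise, 227 in the knock-in without exercise, 303 in WT with exercise and 282 in WT without exercise. CA1 neurons had 317, 193, 270 and 245 CPM, and granule neurons 255, 187, 214 and 211 CPM. In all 3 classes the knock-in with exercise was highest and the knock-in without exercise lowest. Means were 290 ± 50.2, 256 ± 51.7 and 217 ± 28.4 CPM, and each overlapped the next although the order held in all 4 libraries. CA3 neurons were lower, with 151 CPM, than CA1 and CA2 neurons. Inhibitory neurons were lower still, with 82.1 CPM in the class from the caudal ganglionic eminence (CGE) and 81 CPM in that from the medial one (MGE). Among glia, astrocytes had 143 CPM and microglia 142, and oligodendrocyte precursors were lowest of all classes, with 32.6 ± 13.5 CPM. Gm16214, an antisense gene that overlaps Sorl1, had at most 46 UMIs in any of the 7 classes and libraries compared, and its reads cannot be told apart where counting ignored strand.

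Clu encodes clusterin, also called apolipoprotein J, a secreted chaperone carried on lipoproteins. It lies on chromosome 14, 65968483 to 65981547, plus strand (ENSMUSG00000022037), and Ptk2b lies 171709 bases further along the same chromosome. Astrocytes had 437 CPM in the knock-in with exercise, 933 in the knock-in without exercise, 419 in WT with exercise and 885 in WT without exercise. Both libraries with exercise were thus below both libraries without it. The astrocyte mean was 668 ± 278 CPM, against 289 ± 189 in vascular cells, 48.7 ± 23.1 in oligodendrocyte precursors and 8.83 ± 0.939 in CA3 neurons. The share of astrocyte nuclei with at least 1 Clu UMI, after thinning each nucleus to 1500 UMIs, was 24.8% (95% interval 17 to 34) in the knock-in with exercise, 71.7% (57.7 to 83.2) in the knock-in without exercise, 42.4% (36.7 to 48.2) in WT with exercise and 50.6% (45 to 56.3) in WT without exercise. Before thinning the shares were 49.1%, 79.4%, 53.3% and 64.8%, and 3, 15, 34 and 20 astrocytes were too shallow to thin. In granule neurons, where Clu averaged 12.9 CPM, the thinned shares were 1.34%, 2.23%, 1.51% and 2.02%, and 6.46%, 7.44%, 7.82% and 8.29% before thinning. Median UMIs per nucleus were 3170, 1742.5, 2189.5 and 2343 in astrocytes and 6705, 4605, 6774 and 6194 in granule neurons.

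Abca1 and Abca7 are paralogous ABC transporters of the plasma membrane. Abca1 loads cholesterol and phospholipid onto apolipoproteins and is a classic target of the sterol-sensing LXR receptors, whereas Abca7 moves phospholipid and is linked to phagocytosis. Their promoters are shown because the 2 paralogues had different class patterns. The sequences are from RefSeq on GRCm38.p6 and run 250 bases before to 50 bases after the annotated start. Abca1 is at chr4:53159846-53160145, minus strand, and Abca7 at chr10:79996244-79996543, plus strand. Capitals mark matches, on either strand, to a relaxed direct repeat of the LXR type (the half-site GGTNA, N being any base, then 5 further bases and GGTNA again), the GC box (GGGCGG), the E-box (CACGTG) and the TATA box (TATAAA).
Abca1: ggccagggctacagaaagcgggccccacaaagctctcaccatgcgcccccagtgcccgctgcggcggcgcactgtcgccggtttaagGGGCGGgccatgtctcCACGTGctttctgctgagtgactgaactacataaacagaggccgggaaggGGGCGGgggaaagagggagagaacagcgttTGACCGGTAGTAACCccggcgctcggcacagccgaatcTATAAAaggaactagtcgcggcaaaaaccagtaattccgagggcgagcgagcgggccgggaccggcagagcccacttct
Abca7: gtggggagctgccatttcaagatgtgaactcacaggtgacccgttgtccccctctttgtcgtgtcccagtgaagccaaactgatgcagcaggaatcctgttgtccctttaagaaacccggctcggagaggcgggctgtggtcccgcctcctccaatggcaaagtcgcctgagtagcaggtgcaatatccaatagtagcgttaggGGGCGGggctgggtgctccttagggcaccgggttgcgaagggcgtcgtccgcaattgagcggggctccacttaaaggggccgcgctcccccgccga
The Abca1 window held the direct repeat, starting 67 bases before the annotated start on the opposite strand, and a TATA box starting at 29 bases before it. It also held an E-box and GC boxes at 163 and 97 bases before the start. The Abca7 window held a GC box 46 bases before the start and no match to the other 3 motifs. Of 32851 promoters in the same table, 0.718% held the direct repeat, 35.7% a GC box, 7.15% the E-box and 13.6% the TATA box. None of the matches overlapped another. A match is a description of the letters and not evidence of binding.

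Abca1 (ENSMUSG00000015243, chromosome 4, 53030787 to 53159895, minus strand) had 178 CPM in microglia of the knock-in with exercise, 220 in the knock-in without exercise, 222 in WT with exercise and 252 in WT without exercise. The intervals of the 4 libraries overlapped. The mean was 218 ± 30.4 CPM in microglia and 138 ± 33.5 in astrocytes, and these ranges did not overlap. Oligodendrocyte precursors, with 115 ± 27.8 CPM, and vascular cells, with 98.3, overlapped their neighbours. Oligodendrocytes had 75.7 CPM and lay apart from vascular cells above them and from mossy cells, with 29.3, below them. Granule neurons had 6.79 CPM and subicular and entorhinal neurons 4.74 ± 2.1.

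Abca7 (ENSMUSG00000035722, chromosome 10, 79996494 to 80015572, plus strand) was highest in MGE inhibitory neurons, with 70.5 CPM in the knock-in with exercise, 32.7 in the knock-in without exercise, 23.6 in WT with exercise and 44 in WT without exercise. Subicular and entorhinal neurons had 67.2, 28.7, 31.9 and 29.2 CPM in the same order. The means, 42.7 ± 20.3 and 39.2 ± 18.7 CPM, did not differ beyond their spread, and no neighbours in the order of the 15 classes did. The lowest class was granule neurons, with 7.19 ± 3.01 CPM. No Abca7 UMI was found in the 68 astrocyte nuclei of the knock-in without exercise, which allows up to 20.7 CPM (3 counts), and the other 3 libraries had 6 to 8 UMIs there. Microglia had 26, 2, 2 and 10 UMIs, too few for a comparison of that class.

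Ptk2b encodes PYK2, a calcium-responsive tyrosine kinase of the focal adhesion kinase family that acts at synapses. It lies on chromosome 14, 66153257 to 66281052, minus strand (ENSMUSG00000059456). Granule neurons had 699 CPM in the knock-in with exercise, 379 in the knock-in without exercise, 467 in WT with exercise and 528 in WT without exercise. CA3 neurons had 582, 322, 411 and 495 CPM, and CA2 neurons 531, 307, 465 and 460 CPM. Granule neurons averaged 518 ± 135 CPM, CA3 neurons 453 ± 112 and CA2 neurons 441 ± 94.5, which overlapped. Microglia followed with 385 CPM, ahead of mossy cells with 367 and CA1 neurons with 364. The markers of the dentate granule neuron summed to between 2123 and 3567 CPM in microglia, and their part in its Ptk2b level was not tested. Inhibitory neurons were at the other end of the order, with 55.6 CPM in the Lamp5 class, 48.4 in CGE neurons and 44.1 ± 30.1 in MGE neurons. Granule neurons alone held 44.6%, 35.8%, 33.6% and 38% of all Ptk2b UMIs in the 4 libraries.

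**Figure D2:**
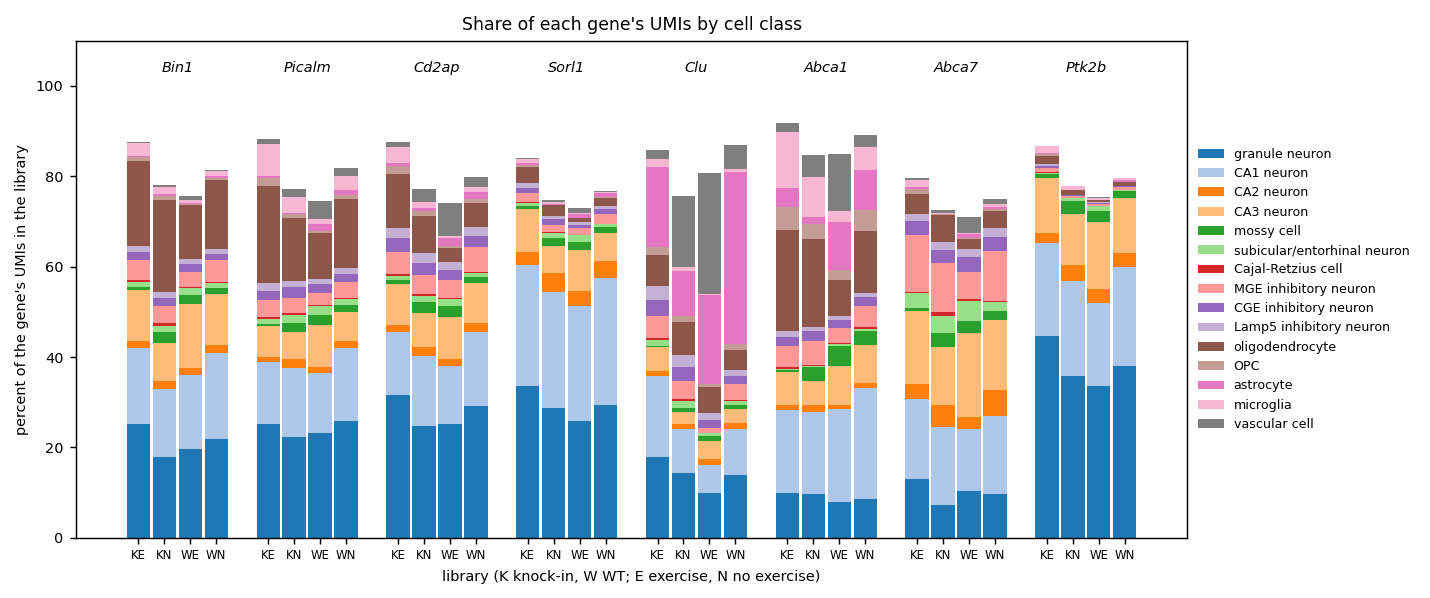
Percent of each gene's UMIs (y axis) in each named cell class, with 1 bar per library in the order knock-in with exercise, knock-in without exercise, WT with exercise, WT without exercise. The part missing from 100% lies in unnamed clusters; granule neurons held 33.6 to 44.6% of Ptk2b UMIs, and astrocytes 9.74 to 38.1% of Clu UMIs.

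Across the 15 classes, Sorl1 and Ptk2b had like patterns, with a Pearson r of 0.78 between their mean log2(CPM + 1) values. Abca1 had an r of 0.80 with Cd2ap, 0.73 with Picalm and 0.66 with Clu, whereas its r with its paralogue Abca7 was -0.41. Picalm and Cd2ap had an r of 0.79, and Bin1 had its highest r among the 8 genes with Picalm, at 0.60. The genes outside the 8 whose class pattern was most like were Parg for Bin1 (r = 0.899), Dcaf12 for Picalm (0.951), Cd164 for Cd2ap (0.952) and Kcnab2 for Sorl1 (0.899). They were Fgd6 for Clu (0.980), Herc6 for Abca1 (0.939), Slf1 for Abca7 (0.902) and Nell2 for Ptk2b (0.951). These are descriptions over 15 points that share the same 4 libraries and differ in depth, out of 11523 genes compared.

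Between libraries, the 8 genes were compared in 7 classes with enough nuclei, which were 4 of neurons (granule, CA1, CA3, inhibitory) and 3 of glia (oligodendrocytes, astrocytes, microglia). Bin1, Sorl1 and Ptk2b showed 1 order of the libraries in neurons, with the highest level in the knock-in with exercise and the lowest in the knock-in without exercise in 4 of 4 neuron classes each. Abca1 and Abca7 showed that order in 2 of 4, and Picalm, Cd2ap and Clu in 0. Over the 8 genes this was 16 of 32 gene and class pairs, where 26.8% of all gene and class pairs with at least 200 UMIs showed the order. In glia it was 4 of 19 pairs, close to the 21.3% of all genes. The order was singled out after the values had been seen. The 4 neuron classes come from the same 4 libraries and are not replicates. How many of all genes showed the order in 4 of 4 classes was not counted. Malat1 took its highest share in the knock-in without exercise and a low one in the knock-in with exercise, as given above, and its part in the order was not tested. With UMI totals that left out mitochondrial genes and the 50 highest genes, the order held in 15 of 32 pairs, against 21.4% of all genes, and Bin1, Sorl1 and Ptk2b showed it in 4 of 4 classes each. Under TMM and median-of-ratios scaling it held in 13 of 32 pairs, against 24.3% and 24.6% of all genes, with Bin1 and Ptk2b in 4 of 4 classes, Sorl1 in 3 and Abca1 in 0.

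**Figure D3:**
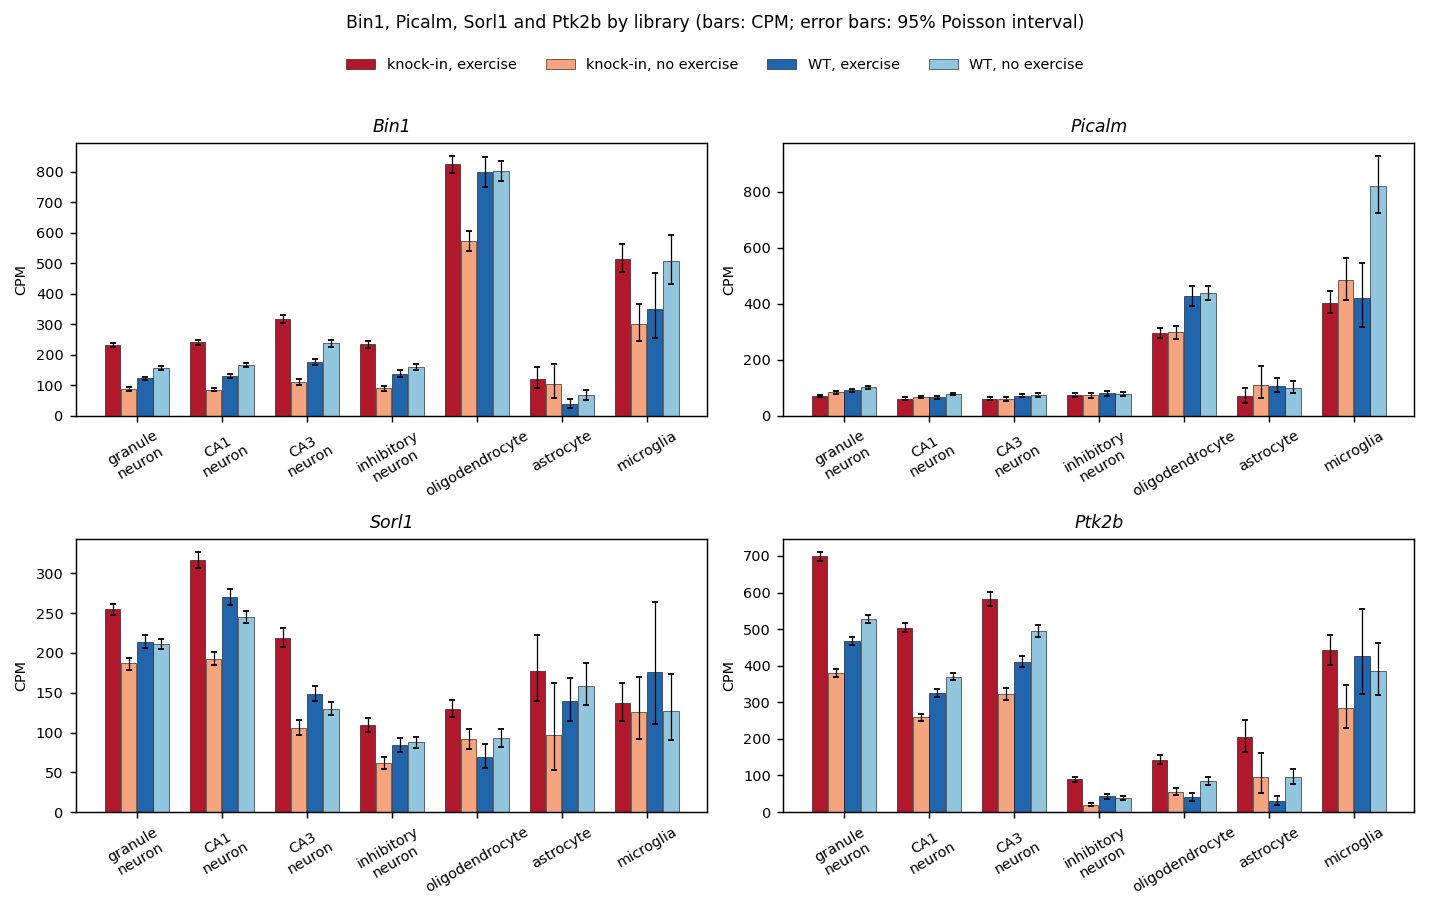
Bin1, Picalm, Sorl1 and Ptk2b in CPM (y axis) in 7 cell classes (x axis), with 1 bar per library and exact 95% Poisson intervals. In granule neurons Bin1 stood at 233, 88.1, 123 and 157 CPM from left to right, and Picalm at 72.6, 84.2, 92.1 and 102 CPM.

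Between the knock-in and WT, both with exercise, the 8 genes were higher in neurons or within 1.5-fold. Past the fold were 10 of 32 neuron pairs upwards and 0 downwards, where 24.5% of all genes were higher and 4.72% lower. Bin1 in granule neurons had 233 CPM (227 to 240) in the knock-in, against 123 CPM (118 to 129) in WT, a log2 ratio of 0.92 (0.84 to 1.0). The ratio was 0.77 in inhibitory, 0.87 in CA1 and 0.84 in CA3 neurons. Abca7 was also past the fold in all 4 neuron classes, with log2 ratios of 0.92 (granule), 1.26 (CA1), 1.0 (CA3) and 1.21 (inhibitory). In CA1 neurons it had 23.7 CPM in the knock-in, against 9.92 CPM in WT. Ptk2b had 89.2 CPM in inhibitory neurons of the knock-in, against 43.3 CPM in WT, for a log2 ratio of 1.04 (0.79 to 1.3). With doublets kept that ratio was 0.12, which ended the call. In CA1 neurons the Ptk2b ratio was 0.63 and was past the fold in 7 of 10 alternative settings, while Bin1 in CA1 and in inhibitory neurons was past it in 8 of 10 each. All genes in these neurons were shifted upwards, with a median log2 ratio of 0.25, and the median of the 8 genes was 0.24. Under TMM and under median-of-ratios scaling, which centre that shift, 7 pairs were higher and 0 lower, where 13% and 13.1% of all genes were higher and 9.8% and 9.78% lower. This comparison does not use the unexercised knock-in library. Cluster 12 held 97.3% of granule neurons in the knock-in, against 3.73% in WT, and cluster 9 held 75.7% of CA1 neurons, against 8.39%. Cluster and genotype can thus not be fully told apart in these 2 classes.

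In glia of the same libraries, 3 of 19 measured pairs were higher and 3 lower, where 20.9% of all genes were higher and 10.1% lower. Ptk2b had 205 CPM in astrocytes of the knock-in, against 29 CPM in WT, and 143 CPM against 40 CPM in oligodendrocytes, with log2 ratios of 2.83 (2.15 to 3.56) and 1.84 (1.43 to 2.27). The oligodendrocyte ratio was 0.40, short of the fold, when nuclei needed at least 1000 genes. Since Ptk2b was highest in granule neurons, the markers of the dentate granule neuron were followed in these nuclei. All 9 were detected, and their summed level was 1982 CPM in astrocytes of the knock-in, against 1930 CPM in WT, and 1281 CPM in oligodendrocytes of the knock-in, against 1130 CPM in WT. Their part in the Ptk2b difference was not tested. Sorl1 in oligodendrocytes was higher by a log2 ratio of 0.90 (0.58 to 1.24), and by 0.53, also short of the fold, with that minimum. Clu in oligodendrocytes had 17.6 CPM in the knock-in, against 76.9 CPM in WT, a log2 ratio of -2.13 (-2.58 to -1.68). Since the knock-in nuclei were in cluster 31 and the WT nuclei mostly in cluster 1, as given above, cluster and genotype cannot be told apart in oligodendrocytes. Picalm and Cd2ap in astrocytes had log2 ratios of -0.63 (-1.28 to -0.01) and -0.66 (-1.28 to -0.08), on 30 and 33 UMIs in the knock-in, and each was past the fold in 8 of 10 alternative settings. The medians in glia were 0.05 for the 8 genes and 0.07 for all genes.

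Between the knock-in and WT, both without exercise, the 8 genes were lower in neurons or within 1.5-fold. Past the fold were 0 of 32 pairs upwards and 11 downwards, where 10.1% of all genes were higher and 10.2% lower. The median of the 8 genes was -0.33 and that of all genes -0.09. Bin1 in granule neurons had 88.1 CPM (83 to 93.4) in the knock-in, against 157 CPM (152 to 163) in WT, a log2 ratio of -0.84 (-0.94 to -0.74). In the other classes the ratio was -0.97 (CA1), -1.10 (CA3) and -0.82 (inhibitory). Abca1 in CA3 neurons had 9.54 CPM in the knock-in, against 18.8 CPM in WT, and its log2 ratio was -0.98 (-1.5 to -0.48) there and -0.72 in CA1 neurons. Thinned to 1500 UMIs per nucleus, the CA3 ratio was -0.07, which ended the call. Abca7 was past the fold in granule (-0.79), CA3 (-0.77) and inhibitory neurons (-0.60, past it in 7 of 10 alternative settings). Ptk2b in inhibitory neurons had 19.5 CPM in the knock-in, against 38 CPM in WT, a log2 ratio of -0.96 (-1.32 to -0.61). In CA3 neurons it was -0.62, which was past the fold in 4 of 10 alternative settings. Picalm, Cd2ap, Sorl1 and Clu were within 1.5-fold in all 4 neuron classes. Malat1 took 9.16% of the UMIs of granule neurons in the knock-in, against 3.2% in WT, and its part in these ratios was not tested. With totals that left out mitochondrial genes and the 50 highest genes, 9 pairs were lower and 0 higher, where 6.56% of all genes were lower and 13.3% higher.

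In glia without exercise, 1 of 18 measured pairs was higher and 5 lower, where 11% of all genes were higher and 16.1% lower. Picalm in microglia had 484 CPM in the knock-in, against 822 CPM in WT, a log2 ratio of -0.76 (-1.05 to -0.48) that ranged from -1.47 to -0.51 over 10 alternative settings. Bin1 in microglia had 302 CPM, against 507 CPM in WT, a log2 ratio of -0.74 (-1.12 to -0.38). The microglia were 159 nuclei in the knock-in and 137 in WT. The markers of the oligodendrocyte, where Bin1 was highest, summed to 1371 CPM in these microglia of the knock-in, against 726 CPM in WT. Picalm in oligodendrocytes had a log2 ratio of -0.56 (-0.7 to -0.42), just short of 1.5-fold, and -0.53 (-0.68 to -0.38) between the libraries with exercise, which share no library with these. Ptk2b in oligodendrocytes was at -0.60, but at 0.39 when nuclei needed at least 1000 genes. Abca1 and Sorl1 in astrocytes were at -0.82 and -0.72, on 13 and 14 UMIs in the 68 astrocyte nuclei of the knock-in, and both intervals reached 0. Cd2ap there was higher, by 0.81 (0.13 to 1.44), on 27 UMIs, with a range of 0.33 to 0.88 over 10 alternative settings. With totals that left out mitochondrial genes and the 50 highest genes, 2 glial pairs were higher and 4 lower, where 13.9% of all genes were higher and 11.3% lower.

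**Figure D4:**
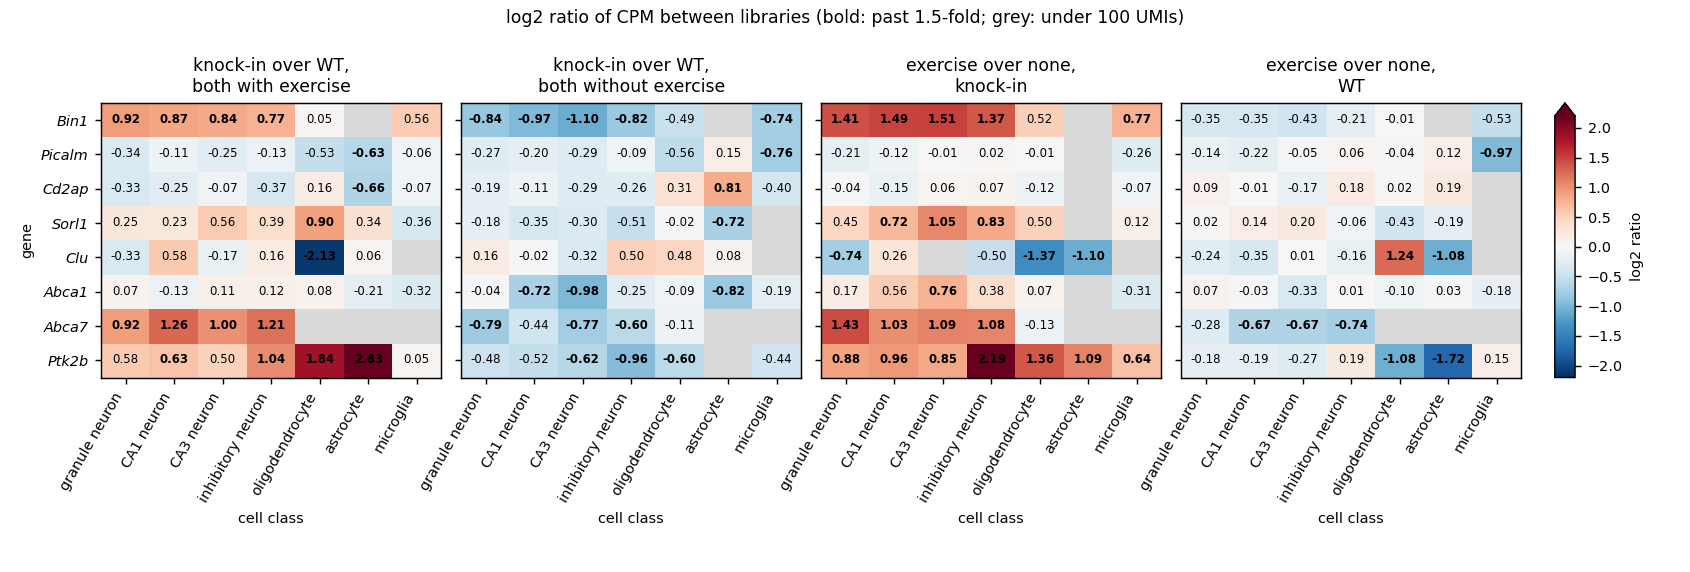
log2 ratio of CPM of the 8 genes (rows) in 7 cell classes (columns) for the 4 comparisons (panels), with values past 1.5-fold in bold and pairs under 100 UMIs in grey. Bin1 in neurons was between 0.77 and 0.92 in the first panel and between -1.10 and -0.82 in the second.

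Between exercise and no exercise in the knock-in, 16 of 31 neuron pairs were higher past the fold and 1 lower, where 25.2% of all genes were higher and 14.3% lower. The median of the 8 genes was 0.72 and that of all genes 0.16. Bin1 was higher by log2 ratios of 1.41 (granule), 1.49 (CA1), 1.51 (CA3) and 1.37 (inhibitory), with 317 CPM in CA3 neurons with exercise, against 111 CPM without. Ptk2b was higher by 0.88, 0.96, 0.85 and 2.19 in the same classes. In inhibitory neurons it had 89.2 CPM (81.7 to 97.1) with exercise, against 19.5 CPM (15.7 to 24) without. The share of inhibitory nuclei with a Ptk2b UMI, thinned to 1500 UMIs, was 13% (10.3 to 16.1) with exercise and 1.83% (0.976 to 3.1) without, and 43.4% and 9.18% before thinning. Ptk2b was read in each of the 15 classes, so none gives its share from free RNA alone, and the part of free RNA was not tested. In oligodendrocytes, another class low in Ptk2b, the thinned share was 20.1% with exercise and 6.86% without. Median UMIs per nucleus were 9377 with exercise and 5772 without in inhibitory neurons, of which 0 and 7 nuclei were too shallow to thin. They were 2804.5 with exercise and 1355 without in oligodendrocytes, of which 8 and 987 were too shallow. The 9 markers of the dentate granule neuron summed to 967 CPM in inhibitory neurons with exercise, against 661 CPM without. Abca7 was higher by 1.43, 1.03, 1.09 and 1.08, and Sorl1 by 1.05 in CA3, 0.83 in inhibitory and 0.72 in CA1 neurons, the CA1 ratio being past the fold in 7 of 10 alternative settings. Abca1 in CA3 neurons was higher by 0.76 (0.25 to 1.3), on 106 UMIs with exercise and 45 without, and was past the fold in 4 of 10 alternative settings. Clu in granule neurons was the 1 pair that was lower, with 9.49 CPM with exercise, against 15.9 CPM without, and was past the fold in 9 of 10 alternative settings. Picalm and Cd2ap were within 1.5-fold in all 4 neuron classes. The comparison shares the unexercised knock-in library with the genotype comparison above it, so that library enters both with opposite sign. Malat1 took 2.77% of granule neuron UMIs with exercise, against 9.16% without. Cluster 12 held 97.3% of granule neurons with exercise, against 0.156% without, and cluster 9 held 75.7% of CA1 neurons, against 2.27%. Cluster and exercise can thus not be fully told apart in these 2 classes. With totals that left out mitochondrial genes and the 50 highest genes, 14 pairs were higher and 2 lower, where 18.6% of all genes were higher and 18.8% lower.

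In glia of the knock-in, 4 of 16 measured pairs were higher with exercise and 2 lower, where 25% of all genes were higher and 16% lower. Ptk2b in oligodendrocytes had 143 CPM with exercise, against 55.8 CPM without, a log2 ratio of 1.36 (1.08 to 1.65) that was 0.29, short of the fold, when nuclei needed at least 1000 genes, with ratios of 1.09 in astrocytes, on 88 and 14 UMIs, and 0.64 in microglia, which was past the fold in 7 of 10 alternative settings. The markers of the dentate granule neuron summed to 1281 CPM in oligodendrocytes with exercise, against 753 CPM without, and their part was not tested. Bin1 in microglia had 516 CPM with exercise, against 302 CPM without, a log2 ratio of 0.77 (0.46 to 1.09). Clu in astrocytes had 437 CPM (376 to 504) with exercise, against 933 CPM (782 to 1104) without, a log2 ratio of -1.10 (-1.42 to -0.77). The 7 markers of the choroid plexus cell summed to 88.7 CPM in these astrocytes with exercise, against 677 CPM without, with 3 and 6 of them detected, and their part was not tested. In oligodendrocytes the Clu ratio was -1.37 (-1.82 to -0.92). With totals that left out mitochondrial genes and the 50 highest genes, 3 glial pairs were higher and 2 lower, where 18.8% of all genes were higher and 20.3% lower.

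Between exercise and no exercise in WT, few neuron pairs were past the fold. They were 0 of 32 upwards and 3 downwards, where 1.1% of all genes were higher and 8.1% lower. All 3 were Abca7, which was past the fold in 8 of 10 alternative settings in CA1 and in 7 of 10 in CA3 neurons, with log2 ratios of -0.67 in both CA1 and CA3 neurons. In inhibitory neurons it had 21.9 CPM with exercise and 36.5 CPM without, a log2 ratio of -0.74 (-1.11 to -0.38). Under TMM and median-of-ratios scaling 1 pair was lower, where 4.29% and 3.89% of all genes were lower and 2.05% and 2.26% higher. Bin1 was lower in all 4 classes by -0.21 to -0.43, within 1.5-fold, beside a median of -0.15 over all genes. In glia 1 of 17 measured pairs was higher and 4 lower, where 3.29% of all genes were higher and 7.23% lower. Clu in astrocytes had 419 CPM (375 to 467) with exercise, against 885 CPM (824 to 949) without, for a log2 ratio of -1.08 (-1.27 to -0.89). This CPM ratio was close in size to that in the knock-in, which shares no library with it. The thinned shares of astrocytes with a Clu UMI, given above, were not alike in this way. They differed less in WT than in the knock-in, and the WT intervals overlapped. The summed markers of the astrocyte stood at 11249 CPM in the knock-in with exercise, 9724 CPM in the knock-in without exercise, 14691 CPM in WT with exercise and 15559 CPM in WT without exercise, with all 10 detected in each library. Picalm in microglia had 420 CPM with exercise, against 822 CPM without, a log2 ratio of -0.97 (-1.42 to -0.54), on 36 and 137 nuclei. Ptk2b was lower in astrocytes (-1.72, on 23 UMIs with exercise) and in oligodendrocytes (-1.08, but 0.28 when nuclei needed at least 1000 genes), and Clu in oligodendrocytes was higher (1.24). The Clu ratio lost the call in 2 of 10 alternative settings, with 0.22 when doublets were kept as the lowest value.

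**Figure D5:**
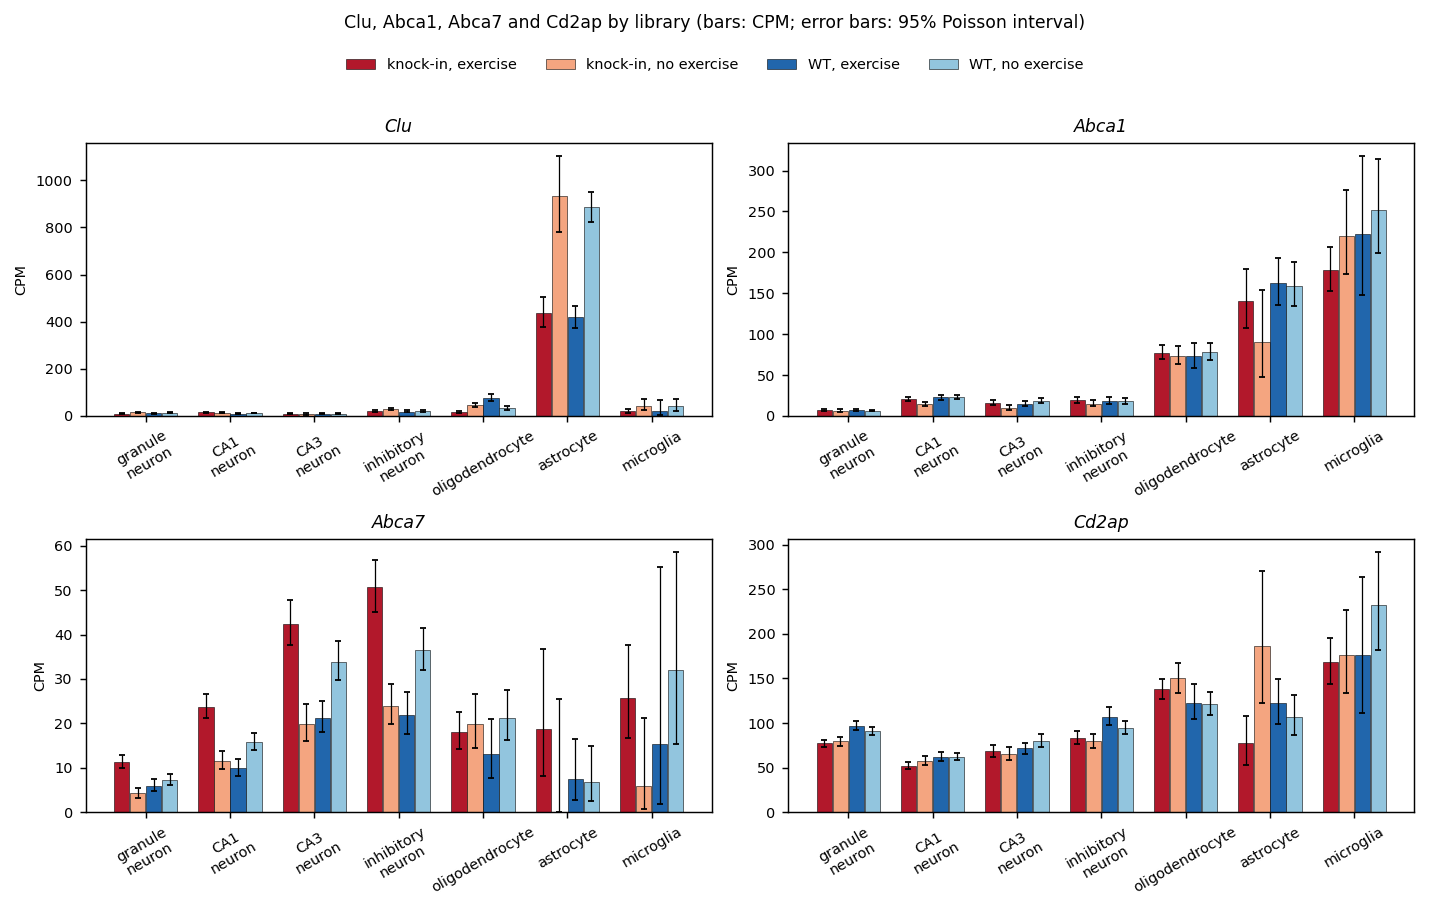
Clu, Abca1, Abca7 and Cd2ap in CPM (y axis) in 7 cell classes (x axis), with 1 bar per library and exact 95% Poisson intervals. Clu in astrocytes stood at 437, 933, 419 and 885 CPM from left to right, and Abca7 in inhibitory neurons at 50.7, 24, 21.9 and 36.5 CPM.

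Clu was also read in vascular cells, a smaller class. It had 68.8 CPM in the knock-in with exercise, 508 in the knock-in without exercise, 364 in WT with exercise and 216 in WT without exercise. The nuclei numbered 72, 70, 275 and 147. In the same nuclei the 7 markers of the choroid plexus cell summed to 150, 13360, 262 and 716 CPM. All 7 were detected in each library but the knock-in with exercise, where Folr1 and Otx2 were at 0. Ttr alone, the leading choroid plexus transcript, stood at 9.39, 10809, 62.7 and 403 CPM. When clusters were cut more finely, the log2 ratio of Clu in astrocytes over vascular cells was 4.55 in place of 1.44. The part of choroid plexus RNA in the vascular Clu level was not tested. In astrocytes of the WT libraries the choroid plexus cell markers summed to 46.6 CPM with exercise and 102 CPM without.

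Lists of other genes that work beside the 8 were counted in the same way over the 4 neuron classes, and no list was tested. With exercise in the knock-in, where 25.2% of all genes in neurons were higher and 14.3% lower, the counts were as follows. Membrane bending and scission genes, which share a pathway with Bin1, were higher with exercise in the knock-in in 42 of 90 pairs (46.7%) and lower in 1. Dnm1, the dynamin that pinches off vesicles at synapses, had 357 CPM in granule neurons with exercise, against 135 CPM without, a log2 ratio of 1.41. Sh3gl1, an endophilin, was lower, with 91.9 CPM with exercise, against 150 CPM without (-0.71). Clathrin coat and adaptor genes, the pathway of Picalm, were higher in 28 of 82 pairs (34.1%) and lower in 0. Hip1r, which ties clathrin coats to actin, had 17.8 CPM in granule neurons with exercise, against 5.87 CPM without.

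Retromer and sorting receptor genes, the pathway of Sorl1, were higher in 29 of 100 pairs and lower in 10 in the same comparison, close to the 25.2% of all genes that were higher. Sorcs3, a sorting receptor related to Sorl1, had 233 CPM in granule neurons with exercise, against 90.8 CPM without, whereas the small GTPase Rab11a had 16.2 against 28.3 CPM. Lipoprotein and sterol export genes were higher in 30 of 75 pairs (40%) and lower in 6. Lrp1, a receptor that takes up lipoproteins, had 111 CPM in granule neurons with exercise, against 49.5 CPM without. Focal adhesion kinase family signalling genes, the pathway of Ptk2b, were higher in 39 of 75 pairs (52%) and lower in 6. Pxn, the adaptor paxillin, had 45.4 CPM in granule neurons with exercise, against 10.9 CPM without, a log2 ratio of 2.05.

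Between the genotypes without exercise, where 10.1% of all genes were higher and 10.2% lower, the same 5 lists were higher in 0 to 9 pairs and lower in 7 to 19. Membrane bending and scission genes were lower in 19 of 90 pairs and higher in 4, and Dnm1 in CA1 neurons had 123 CPM in the knock-in, against 259 CPM in WT. Lipoprotein and sterol export genes were the list with more higher pairs, 9 of 75, than lower ones, 7. With exercise, the knock-in was higher than WT in 23 of 100 retromer and sorting receptor pairs and in 32 of 72 lipoprotein and sterol export pairs (44.4%), the smallest and largest shares of the 5 lists, where 24.5% of all genes were higher. Exercise in WT gave 0 or 1 higher pair and 2 to 13 lower pairs in each list, where 1.1% of all genes were higher and 8.1% lower.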

How the data were processed

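Hippocampal nuclei of 4 groups with 1 library each were analysed. The authors deposited counts, whole UMIs per gene and barcode without normalization, beside lists of barcodes and genes. Cell Ranger is 5.0.1 per the file headers and 3.1.0 per the submitters' processing notes, which also give mm10. The sources used here do not say how intron reads and strand were treated. Coordinates are from GENCODE M21 on GRCm38, which held 32158 of the 32285 gene identifiers, and promoters from RefSeq.

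Nuclei with at least 500 genes, 1000 UMIs and under 5% mitochondrial UMIs were kept. Doublets were scored against simulated pairs, and the top 0.8% per 1000 nuclei left out. Between 42.5% and 66.1% of simulated pairs scored above the limit, so some doublets remained. Clusters (scanpy 1.11.5, 2000 variable genes, 30 components, resolution 1.0, seeded, no integration) were named from markers of 25 classes; a name says only that a cluster was like the type. UMIs were summed per class and library. Sums carry exact Poisson intervals, ratios exact conditional binomial intervals and shares Clopper-Pearson intervals. Only the ratio intervals were tried on simulated counts, in granule neurons and microglia of the genotype comparison without exercise. Those counts were drawn with counting error alone, so the trial cannot speak to spread between nuclei or libraries. edgeR 4.0.16 was used for TMM scaling only. The genes named are the 8 genes in every class, per gene the most alike genes across classes (mean at least 20 CPM in their highest class), and genes among the 2 highest or 2 lowest of a list in a class. The 8 genes, the lists and the markers were chosen with earlier results of these data known.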

Additional observations from a re-analysis of the deposited data

Results flagged for a closer look

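The difference between exercise and no exercise was past 1.5-fold in opposite directions in the 2 genotypes for 6 pairs of gene and class, as log2 ratios in the knock-in and then in WT. None of these differences between genotypes was tested, since each ratio compares 1 library with 1 library. For Abca7 they were 1.03 and -0.67 in CA1 neurons, 1.09 and -0.67 in CA3 neurons, and 1.08 and -0.74 in inhibitory neurons. In oligodendrocytes they were -1.37 and 1.24 for Clu, and 1.36 and -1.08 for Ptk2b. Clu in WT was 0.22 with doublets kept, and Ptk2b was 0.29 and 0.28 when nuclei needed at least 1000 genes, so neither pair was then past the fold in both genotypes. In astrocytes Ptk2b gave 1.09 and -1.72. The share of all gene and class pairs that met this rule was not counted, so the count of 6 does not set these genes apart.

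The difference between the knock-in and WT was past 1.5-fold in opposite directions with and without exercise for 10 pairs, given as the log2 ratio with exercise and then without it, and also not tested. For Bin1 they were 0.92 and -0.84 in granule neurons, 0.87 and -0.97 in CA1 neurons, 0.84 and -1.10 in CA3 neurons, and 0.77 and -0.82 in inhibitory neurons. For Abca7 they were 0.92 and -0.79 in granule neurons, 1.0 and -0.77 in CA3 neurons, and 1.21 and -0.60 in inhibitory neurons. For Ptk2b they were 1.04 and -0.96 in inhibitory neurons and 1.84 and -0.60 in oligodendrocytes. The inhibitory ratio with exercise was 0.12 with doublets kept, and the oligodendrocyte ratios were 0.40 and 0.39 when nuclei needed at least 1000 genes. For Cd2ap in astrocytes they were -0.66 and 0.81. Both sets use the same 4 libraries and are not independent. For this rule too, the share of all gene and class pairs was not counted, so the count of 10 does not set these genes apart. In neurons, 24.5% of all genes were higher in the knock-in and 4.72% lower with exercise, against 10.1% and 10.2% without it.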

How the results depend on the processing

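No paired analysis was possible because each group had 1 library. The number of pairs past 1.5-fold over the 7 classes was 16 and 17 for genotype with and without exercise, 23 for exercise in knock-in mice and 8 for exercise in WT. These counts stayed within 1.5 times under each alternative run except thinning to 1500 UMIs, which lowers the UMIs and so the pairs measured, and gave 10 for genotype without exercise, 15 for exercise in knock-in mice and 3 for exercise in WT. The share of all genes past the fold was not counted after thinning. Before thinning that share differed between comparisons, so the counts do not rank them for the 8 genes. In neurons, 25.2% of all genes were higher and 14.3% lower with exercise in the knock-in, against 1.1% and 8.1% in WT. Thinning also left 10 neuron pairs, of 18 measured, with the knock-in with exercise highest and the knock-in without lowest, an alternative chosen after seeing the data. The share of all genes was 27.2%. Bin1 showed the order in 4 neuron classes, Sorl1 and Ptk2b in 3 each, and the other genes in 0. Ptk2b in oligodendrocytes reversed with at least 1000 genes per nucleus, to 0.39 for genotype without exercise and 0.28 for exercise in WT, and the cause was not tested. Of the 64 ratios past the fold, 55 stayed past it under TMM scaling.

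The mean log2 ratio of vascular cells over microglia for Cd2ap was 0.40 and reversed to -0.43 at resolution 2.0 and -0.33 after thinning. For Abca7, MGE inhibitory over subicular and entorhinal neurons was 0.10 and reversed to -0.09 with doublets kept and to -0.27 after thinning. For Bin1, oligodendrocytes over microglia moved to 0.61 after thinning. For Sorl1, CA2 over CA1 neurons moved to 0.23 with doublets kept and 0.31 after thinning. For Clu, astrocytes over vascular cells moved to 4.55 at resolution 2.0. Leaving out 1 library at a time gave 0.75 to 0.93 for Bin1, 0.37 to 0.68 for Picalm (microglia over oligodendrocytes), 0.27 to 0.54 for Cd2ap, 0.17 to 0.20 for Sorl1, 1.03 to 1.85 for Clu, 0.48 to 0.80 for Abca1 (microglia over astrocytes), -0.06 to 0.28 for Abca7, where leaving out WT without exercise reversed it, and 0.17 to 0.23 for Ptk2b (granule over CA3 neurons).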
